A study of Mus musculus with 6 samples.

Results

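The genes described here encode the proteins of the mitochondrial ribosome. Members were all gene symbols of the deposited count table that start with Mrpl (large subunit) or Mrps (small subunit) followed by a digit, without names ending in -ps. The rule found 77 genes among 24421 rows, 48 of the large and 29 of the small subunit, and used no measured value. All 77 passed the filter on low counts, which 11805 of the 24421 rows passed (48.3%).

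The cells were group 2 innate lymphoid cells (ILC2), lymphocytes without antigen receptors that make type 2 cytokines, sorted by surface markers from the brains of C57BL/6 mice. Both groups were kept in culture for 2 weeks in medium with 20% FCS, IL7, IL2, IL33 and SCF (stem cell factor), so every library stands for cytokine-expanded cells. Mice were 2 to 3 months old in the young group (n = 3 libraries) and 20 to 22 months old in the aged group (n = 3), with no other treatment named. No label ties a library to an animal or a culture of its own. All p-values therefore measure only how far these libraries spread, which may be technical.

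The mitochondrial ribosome translates the few proteins that mitochondrial DNA encodes, all of them core subunits of the respiratory chain and the ATP synthase. Its ribosomal RNAs come from mitochondrial DNA, whereas its proteins are encoded in the nucleus, made in the cytosol and imported. Compared with its bacterial relative it has less RNA and more protein, with some proteins kept from bacteria and others found only in mitochondria. Activated T cells make more mitochondria, and this ribosome supplies the respiratory chain subunits that come from mitochondrial DNA.

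Library totals ran from 16477157 to 20804291 counts, and the members took 160570 to 191606 counts per library, with 119 to 14820 counts per member and library. Levels below are CPM, each gene's counts scaled to a common library size, with library sizes multiplied by edgeR's TMM factors, which were 1.16 ± 0.030 for the young libraries and 0.865 ± 0.023 for the aged ones (SD, n = 3 each). Marker sums, in contrast, are CPM of library totals without the TMM factors. The summed ILC2 markers (12 of 12 in the table) took 14830 to 17059 CPM of library totals in young and 11046 to 13086 in aged libraries. With TMM, edgeR called 2 of the 12 higher and 6 lower in aged libraries, beside 11.2% and 8.14% of all genes. The 4 NK and ILC1 markers were listed at 0 in all libraries, as were Cd3e, Cd4, Cd8a and Cd5 of 6 T cell markers. The T cell markers together had 7.89 to 15.3 CPM in young and 5.89 to 12.98 in aged libraries. For B cell markers these sums were 15.96 to 25.69 and 27.88 to 51.58 CPM, and for endothelial markers 74.85 to 120.3 and 111.2 to 140.9 CPM. Oligodendrocyte markers had 23.8 to 43.2 and 13.2 to 15.7 CPM. With TMM, 1 B cell and 1 endothelial marker were called higher in aged libraries. The part of these lists was not tested. The 6 microglia and macrophage markers together had 5.88 to 20.9 CPM in young and 45.1 to 71.6 in aged libraries, with Csf1r at 0, and their part in the results was not tested. In bulk RNA, fewer cells of a type and less RNA per cell cannot be told apart.

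In the aged libraries 22 of the 77 members were higher and 0 lower at an edgeR adjusted p under 0.05, while 55 did not pass. Among all genes tested, 11.2% were called higher and 8.14% lower. At an unadjusted p under 0.05 edgeR had 31 members higher and 1 lower, against 16.1% and 15.4% of all genes, while DESeq2 called 28 higher and 1 lower and limma-voom 24 and 1. Of the members, 61 had a positive and 16 a negative log2 change, aged minus young, with a median of 0.31 (quartiles 0.10 and 0.62) and a range from -0.77 to 1.29, beside a median of -0.10 over all genes. The libraries of the groups did not overlap in 40 members, 38 with aged higher and 2 with aged lower, against a background of 19.3% and 18.8% of genes. Without the size-factor step, on library totals alone, the median of all genes moved from -0.10 to -0.52 and that of the members turned to -0.11. On totals 4 members were called higher and 5 lower, and the 22 kept positive log2 changes, from 0.13 in Mrpl51 to 0.87 in Mrpl52. The members' median stood 0.42 above that of all genes under TMM and 0.41 above it under totals. With offsets for GC content and transcript or coding length, members minus all genes was -0.020 and -0.013, and 14 and 1 members were called higher. Leaving out 1 library lowered the count of 22 to 9 (without young replicate 1), 11 (young 2), 14 (aged 1), 11 (aged 2) or 13 (aged 3), and raised it to 26 without young replicate 3. Of the 22, 8 were called whichever library was left out, and these were Mrps24, Mrpl52, Mrpl54, Mrpl14, Mrpl57, Mrpl33, Mrps14 and Mrps28.

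**Figure D1:**
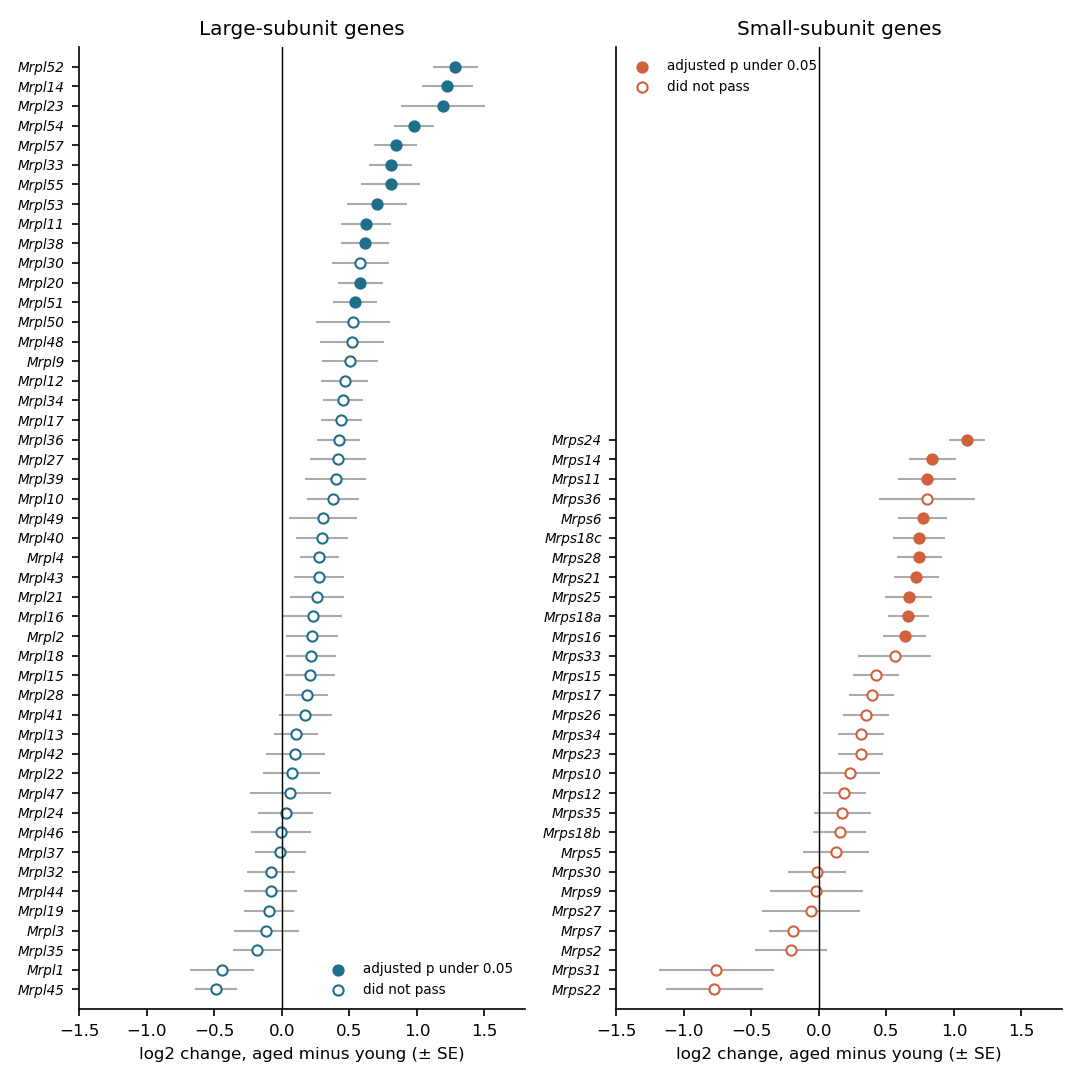
Log2 change (aged minus young, TMM-scaled, x axis) with its standard error for each of the 48 large-subunit (left) and 29 small-subunit genes (right), ordered by size; filled points passed an edgeR adjusted p under 0.05. All 22 filled points lie to the right of 0, and the medians of 0.30 (large) and 0.35 (small) turn to -0.12 and -0.07 on library totals.

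Promoter stretches are shown for 2 members that were called and 2 that were not, since the ETS-family letters CCGGAAG, on either strand, were in the windows of 25 members. RefSeq (GRCm38.p6) had promoter windows, from 250 bases before to 50 after a start, for 68 of the 77 members, 74 windows in all. The ETS letters were in 33.8% of the members' windows and 8.86% of all 32851 windows. The YY1 word was in 6.76% against 0.633%, and the NRF-1 word in 4.05% against 0.971%, each searched on both strands as an exact word that holds neither of the other two. Among members with a window, 9 of the 19 that were called higher and 16 of the 49 others had the ETS letters. A match describes letters and is no measured binding. Capitals mark CCGGAAG or its reverse complement in the 100 bases before the RefSeq start of Mrpl52 (chr14:54426809-54426908, plus strand) and Mrps18a (chr17:46110904-46111003, plus strand), both called higher. The same is marked for Mrps22 (chr9:98601680-98601779, minus strand), the member with the lowest log2 change, and Mrpl3 (chr9:105053168-105053267, plus strand), which was not called. GENCODE places some starts further upstream, so that the last 18 bases of the Mrps18a stretch and the last 29 of the Mrpl3 stretch, the capitals of Mrpl3 among them, lie in an annotated exon. All are written 5′ to 3′ on the gene's strand.
Mrpl52: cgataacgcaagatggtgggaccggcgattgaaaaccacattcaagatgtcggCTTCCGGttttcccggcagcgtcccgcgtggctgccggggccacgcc
Mrps18a: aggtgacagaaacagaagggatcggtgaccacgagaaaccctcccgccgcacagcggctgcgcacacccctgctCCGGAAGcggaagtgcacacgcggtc
Mrps22: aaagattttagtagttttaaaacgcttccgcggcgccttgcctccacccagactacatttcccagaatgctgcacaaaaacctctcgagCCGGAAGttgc
Mrpl3: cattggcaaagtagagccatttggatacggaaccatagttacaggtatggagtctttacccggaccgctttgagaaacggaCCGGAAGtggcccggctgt

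Of the 48 large-subunit genes 12 rose (25%) and 0 fell, beside 11.2% and 8.14% of all genes, with a median log2 change of 0.30. Mrpl52, a protein found only in mitochondrial ribosomes (chromosome 14, 54426909 to 54429756, plus strand), read 122, 104 and 148 CPM in the young and 284, 296 and 332 CPM in the aged libraries. The lowest aged library lay well above the highest young one, and the log2 change of 1.29 ± 0.17 (SE) was the largest of the members called (edgeR adjusted p = 0.000445). Mrpl14, which lies on the face of the large subunit that meets the small one (chromosome 17, 45686322 to 45698495, plus strand), had 111, 92.7 and 116 CPM in the young libraries and 247, 302 and 200 CPM in the aged ones. Its groups were also apart, with a log2 change of 1.23 ± 0.19 (edgeR adjusted p = 0.00105). Of its exon length, 11.2% is shared with other genes, with the largest overlap in Tmem63b on the opposite strand. Because the strand setting of the counting is not given in the sources used here, its counts are uncertain to that extent.

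Mrpl54, also specific to mitochondria, rose from 168, 141 and 181 CPM in young to 318, 334 and 314 CPM in aged libraries (log2 change 0.98 ± 0.15, edgeR adjusted p = 0.000996). The aged libraries differed among themselves by less than the young ones did. Mrpl57, another mitochondria-specific protein, had 197, 168 and 234 CPM in the young libraries and 349, 391 and 334 CPM in the aged ones (0.84 ± 0.16, edgeR adjusted p = 0.00394). Mrpl33, a small protein of bacterial origin with 65 residues, had 512, 384 and 500 CPM in the young libraries and 694, 803 and 942 CPM in the aged ones (0.81 ± 0.16, edgeR adjusted p = 0.00491). It was also the member with the most counts per length, at 1337 CPM per 1000 bases of transcript over all 6 libraries. Mrpl52 (513) and Mrpl20 (488) followed it on that scale, and Mrpl47 (9.37), Mrpl48 (12.2) and Mrpl19 (13.4) came last among large-subunit genes. Of the latter, Mrpl47 and Mrpl19 share 24.2% and 36% of their exons with other genes, and the 3 had log2 changes of 0.06, 0.52 and -0.10, none past the threshold. Mrpl47 had 25.5, 25.3 and 41.7 CPM in the young libraries and 30.4, 37.1 and 29.0 CPM in the aged ones. Mrpl48 had 40.3, 35.9 and 53.2 CPM against 52.9, 66.9 and 65.5 CPM, and Mrpl19 had 71.7, 71.4 and 65.1 CPM against 66.8, 63.5 and 64.4 CPM. The groups overlapped in all 3.

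Mrpl23, a protein at the exit of the peptide tunnel, was the least abundant of the members that rose, with 12.6, 12.8 and 16.4 CPM in the young libraries and 31.2, 29.7 and 34.7 CPM in the aged ones. Its log2 change of 1.19 had a standard error of 0.31, the widest among the 22 (edgeR adjusted p = 0.0205), the call was lost without young 1, young 2 or aged 3 (highest adjusted p 0.0836), and a GENCODE pseudogene carries its name. The other large-subunit genes that rose were Mrpl55 (0.80), Mrpl53 (0.70), Mrpl38 (0.62), Mrpl11 (0.62), Mrpl20 (0.58) and Mrpl51 (0.54), with edgeR adjusted p from 0.024 to 0.0484. Mrpl20, a protein of bacterial origin, rose from 307, 233 and 356 CPM to 413, 483 and 444 CPM. Each of these 6 was called in at most 2 of the 6 fits that left out a library. For Mrpl53 the groups were barely apart, 81.3 CPM in the highest young and 82.4 CPM in the lowest aged library. Other genes overlap 88% of its exons, with the largest overlap in Gm42688 on the same strand.

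The stalk of the large subunit, which recruits translation factors, is built from Mrpl10, Mrpl11 and Mrpl12. Mrpl11, at its base, rose from 81.3, 73.4 and 88.5 CPM to 113, 113 and 147 CPM (edgeR adjusted p = 0.0378). Mrpl12, the stalk protein that contacts the factors, had 159, 142 and 185 CPM in the young libraries and 261, 191 and 219 CPM in the aged ones, and its log2 change of 0.46 ± 0.17 missed the threshold (edgeR adjusted p = 0.0856). Mrpl10, which holds Mrpl12 on the ribosome, had 64.0, 83.3 and 65.1 CPM in the young libraries and 85.5, 91.5 and 98.5 CPM in the aged ones (0.38 ± 0.19, edgeR adjusted p = 0.211). The groups were apart in all 3 genes, and Mrpl10 and Mrpl12 share 14.1% and 13.1% of their exons with neighbours.

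Mrpl45 was the member nearest to a fall. This mitochondria-specific protein sits at the tunnel exit and ties the ribosome to the inner membrane. It had 255, 208 and 229 CPM in the young libraries and 178, 173 and 143 CPM in the aged ones, so every aged library was below every young one. The log2 change of -0.49 ± 0.16 missed the threshold with an edgeR adjusted p of 0.0511, and the DESeq2, limma-voom and robust edgeR fits called it lower. Mrpl1, a protein of the mobile stalk at the tRNA exit, had a log2 change of -0.44 (edgeR adjusted p = 0.237) and overlapping groups.

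**Figure D2:**
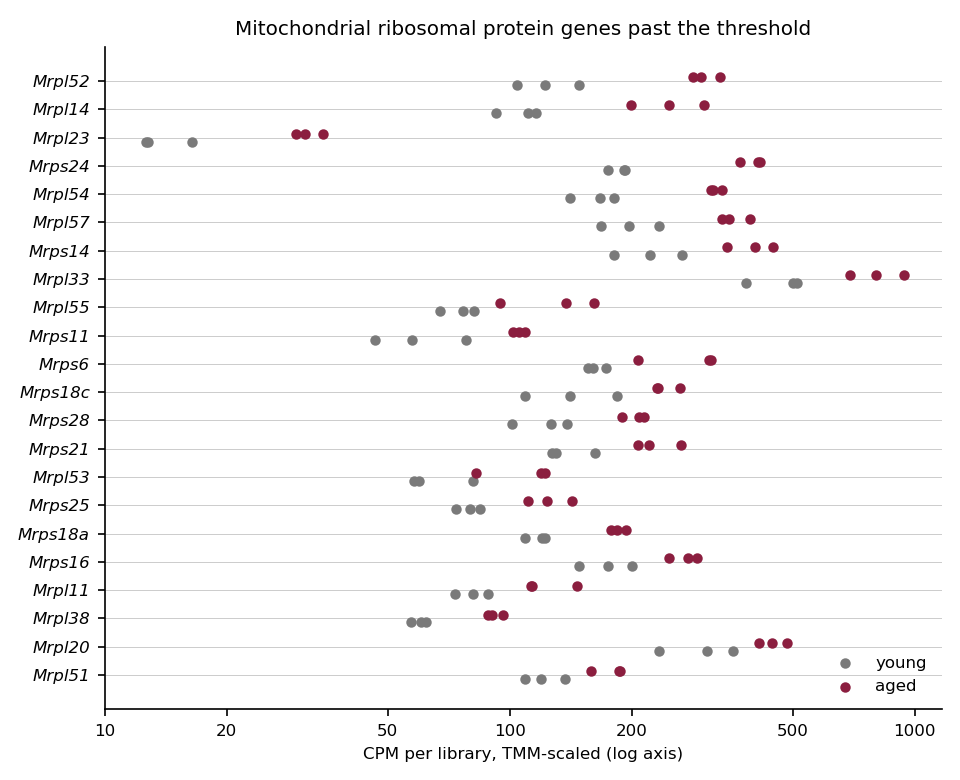
CPM per library (TMM-scaled, log x axis) of the 22 members called higher, with 3 young and 3 aged points for each gene. The groups do not overlap in any of the 22 genes, and Mrpl53 has the closest pair at 81.3 and 82.4 CPM.

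Among small-subunit genes 10 of 29 rose (34.5%) and 0 fell, beside 11.2% and 8.14% of all genes, with a median log2 change of 0.35. Mrps24, the counterpart of the bacterial protein at the messenger RNA entry (chromosome 11, 5703983 to 5715680, minus strand), had the smallest p of all members. It read 192, 175 and 193 CPM in the young libraries and 411, 370 and 414 CPM in the aged ones. The young libraries lay close together and far below all aged ones, and the log2 change was 1.095 ± 0.13 (edgeR adjusted p = 0.000311). It was the single member that stayed called higher under all 19 alternative settings. Other genes overlap 15.4% of its exons, with the largest overlap in Urgcp on the same strand.

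Mrps14, in the head of the small subunit, rose from 222, 181 and 266 CPM to 345, 404 and 448 CPM (log2 change 0.84 ± 0.17, edgeR adjusted p = 0.0061). Mrps28, the counterpart of a bacterial protein that binds messenger RNA, rose from 126, 101 and 139 CPM to 190, 209 and 215 CPM (0.74, edgeR adjusted p = 0.0102). Both had their groups apart by a clear gap. Mrps21, a small protein of bacterial origin, had 127, 130 and 162 CPM in the young libraries and 207, 220 and 264 CPM in the aged ones (0.72, edgeR adjusted p = 0.0118). Mrps6, on the platform of the subunit, had 156, 161 and 173 CPM in the young libraries and 315, 311 and 208 CPM in the aged ones (0.77, edgeR adjusted p = 0.0123). Mrps16, a protein of the subunit's body, had 175, 149 and 201 CPM in the young libraries and 248, 276 and 291 CPM in the aged ones (0.64, edgeR adjusted p = 0.0171). The lowest aged library of Mrps6 stood apart from the other aged ones. Other genes overlap 19.9% of the Mrps6 exons, with the largest overlap in Gm49711. The calls of Mrps21, Mrps6 and Mrps16 were lost without young replicate 1 (adjusted p 0.0713, 0.063 and 0.0763). Those of Mrps6 and Mrps16 were also lost without aged replicate 2 (0.0599 and 0.061), that of Mrps6 without aged replicate 1 (0.0541), and that of Mrps16 without young replicate 2 (0.0581) or aged replicate 3 (0.0518).

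Mammals have 3 genes descended from a bacterial S18 protein, and they did not share a call. Mrps18a, whose protein sits in the large subunit despite its name, had 109, 120 and 122 CPM in the young libraries and 194, 185 and 178 CPM in the aged ones, a log2 change of 0.66 (edgeR adjusted p = 0.0108, or 0.0679 without young replicate 1). Mrps18c, the direct counterpart of the bacterial protein, had 141, 109 and 184 CPM in the young libraries and 232, 232 and 263 CPM in the aged ones (0.74, edgeR adjusted p = 0.0205). Its young libraries were spread widely, and its call held in 2 of the 6 fits with a library left out. Other genes overlap 23.2% of its exons, with the largest overlap in Gm43511. Mrps18b had 56.0, 70.0 and 71.3 CPM in the young libraries and 67.9, 77.8 and 73.9 CPM in the aged ones, overlapping groups with a log2 change of 0.15 ± 0.20 (edgeR adjusted p = 0.66). The differences between the 3 changes were not tested.

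Mrps25 (0.66, edgeR adjusted p = 0.0231) and Mrps11 (0.80, edgeR adjusted p = 0.0249) completed the small-subunit genes that rose. Other genes overlap 69.8% of the Mrps25 exons, with the largest overlap in Nr2c2 on the opposite strand. Mrps12, a protein of the decoding centre, had 145, 146 and 157 CPM in the young libraries and 151, 190 and 169 CPM in the aged ones, with overlapping groups (0.19 ± 0.16, edgeR adjusted p = 0.467). Mrps22 and Mrps31, both specific to mitochondria, had the lowest log2 changes, -0.77 ± 0.36 and -0.76 ± 0.42, and did not pass (edgeR adjusted p = 0.171 and 0.257). Mrps22 had 33.5, 31.7 and 67.9 CPM in the young libraries and 23.6, 19.2 and 34.9 CPM in the aged ones, which overlap. Mrps31 had 30.3, 33.0 and 33.8 CPM in the young libraries and 7.89, 19.9 and 29.5 CPM in the aged ones, apart but with a wide spread in aged. By level per 1000 bases, Mrps21 (380), Mrps18c (303) and Mrps24 (294) led the small subunit, and Mrps2 (15.9), Mrps35 (14.6) and Mrps5 (8.83) came last, with log2 changes of -0.21, 0.17 and 0.12 that did not pass. Mrps2 had 36.7, 41.3 and 28.3 CPM in the young libraries and 33.0, 29.0 and 30.2 CPM in the aged ones. Mrps35 had 58.4, 58.1 and 54.7 CPM against 55.1, 62.1 and 76.0 CPM, and Mrps5 had 37.6, 36.2 and 39.8 CPM against 33.6, 46.6 and 43.7 CPM. Groups overlapped in each of them.

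Names and structure differ for a few members. Mrps30, placed in the large subunit by structure, had 70.7, 88.6 and 107 CPM in the young libraries and 82.5, 106 and 74.9 CPM in the aged ones (log2 change -0.02, edgeR adjusted p = 0.972). Mrps36 is now assigned to the oxoglutarate dehydrogenase complex and not to the ribosome. It had 10.8, 13.4 and 13.9 CPM in the young libraries and 17.7, 23.8 and 24.9 CPM in the aged ones, apart but not called (0.80 ± 0.36, edgeR adjusted p = 0.152), and 3 pseudogenes carry its name. With Mrps18a and Mrps30 counted as large and Mrps36 left out, 13 of 50 large (26%) and 9 of 26 small-subunit genes (34.6%) rose. The medians were 0.30 and 0.33, and 11.2% of all genes were called higher.

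Large and small subunits were compared by their summed levels, with no test, since the sums rest on chosen members. Large-subunit genes summed to 5789 ± 580 CPM over the young libraries and 7745 ± 423 CPM over the aged ones, and small-subunit genes to 2746 ± 242 and 3932 ± 151 CPM (SD, n = 3 each). On library totals the large subunit took 0.667 ± 0.050% of all counts in young and 0.670 ± 0.044% in aged libraries, and the small subunit 0.317 ± 0.019% and 0.340 ± 0.015%. The scaled sums were apart between groups in both subunits, whereas the shares of totals overlapped in both. All members together took 0.984 ± 0.069% and 1.01 ± 0.059% of counts. A measure that no scaling touches is the small subunit's part of the member counts, which was 32.2 ± 0.40% in young (31.9 to 32.7%) and 33.7 ± 0.48% in aged libraries (33.1 to 34.0%). The small subunit's part was thus higher in each aged library than in each young one. The difference between the median log2 changes, large minus small, was -0.05, and it was 0.04 without aged replicate 2. Without members that overlap another gene it was -0.00086. With offsets for GC content and transcript or coding length it was 0.0015 and -0.17.

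**Figure D3:**
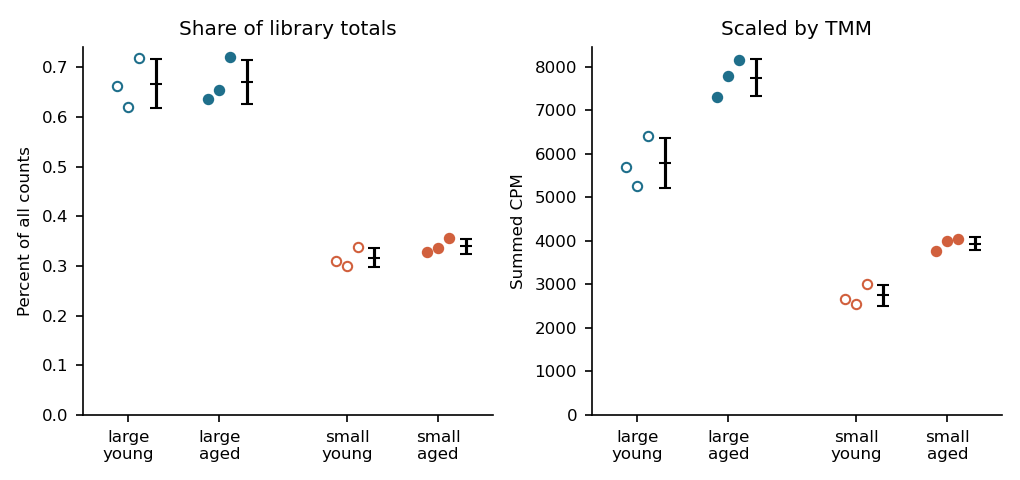
Summed member counts per library for each subunit as percent of all counts (left) and as TMM-scaled CPM (right), open points young and filled points aged, bars mean ± SD (n = 3). The large-subunit share is 0.667% and 0.670% on totals, while the scaled sums are 5789 and 7745 CPM, so the size of the group difference depends on the scaling.

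Members were also divided by origin, again as a description. Subunits here follow the symbols, so Mrps18a and Mrps30, placed in the large subunit by structure, count as small. Mrps18b counts as mitochondria-specific, although it descends from a bacterial S18 protein, and Mrps36 is in neither class. Of 46 with a bacterial counterpart 14 rose (30.4%, median log2 change 0.38), and of 30 specific to mitochondria 8 rose (26.7%, median 0.31). The share called higher over all genes tested was 11.2%. In the small subunit 9 of 17 genes of bacterial origin rose (52.9%, median 0.64), against 1 of 11 mitochondria-specific genes (9.09%, median 0.17), which was Mrps25. In the large subunit 5 of 29 of bacterial origin rose (17.2%, median 0.26) and 7 of 19 mitochondria-specific genes (36.8%, median 0.40). Within each subunit the class with the higher median change had the shorter median coding length, and the part of length in the split was not tested. Median coding lengths were 561 and 765 bases for the small-subunit classes and 606 and 480 bases for the large-subunit classes. With offsets for coding length and GC content the medians were 0.17 and 0.01 in the small subunit and -0.03 and 0.06 in the large subunit.

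Coding length moved with the change over all members. The longer the coding sequence, from 198 bases in Mrpl33 to 1329 bases in Mrps30, the lower the log2 change, with a Spearman correlation of -0.69 over 77 genes, -0.61 over the 48 large and -0.76 over the 29 small. Across 10809 tested genes with a coding length it was -0.42. With transcript length it was -0.43 over the 77 members and -0.36 over 11356 tested genes. These are correlations over genes that share the same 6 libraries. Tested genes were divided into 5 groups of about equal size by coding length. In the shortest group, up to 717 bases, 21 of 49 members rose (42.9%, median 0.52) and 34.6% of all genes did (median 0.50). In the next group, from 720 to 1116 bases, 0 of 21 members rose and 12.7% of all genes, with medians of 0.15 and 0.10. The next held 7 members, of which Mrpl38 rose. Grouped by transcript length instead, the shortest group, up to 1578 bases, had 16 of 49 members called higher (32.7%, median 0.39). Of all genes in that group 31.4% were called higher (median 0.50). In each longer transcript group the members' median was above that of all genes. With offsets for GC content and coding length, a setting added once the data had been seen, 1 member stayed called higher, Mrps24 (log2 change 0.53, edgeR adjusted p = 0.0298), and 1 was called lower, Mrps12 (-0.53, edgeR adjusted p = 0.0425). With offsets for transcript length and GC content 14 were called higher, 7 of them among the 22, and Mrps22 and Mrps12 were called lower. What lies behind the relation to length was not tested.

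**Figure D4:**
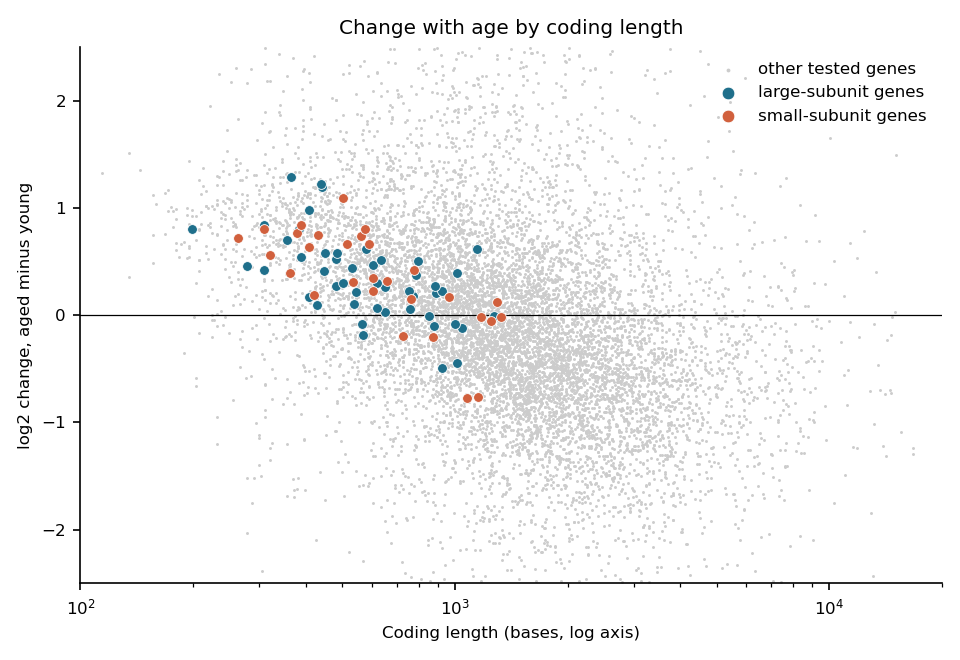
Log2 change (aged minus young, TMM-scaled, y axis) against coding length in bases (log x axis) for large-subunit and small-subunit genes over the other tested genes in grey. Members follow the downward trend of the grey points, with Spearman correlations of -0.69 over the 77 members and -0.42 over 10809 genes.

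Head-to-head gene pairs, with opposite strands and starts within 1000 bases, held 19 of the 77 members (24.7%) and 11.8% of 10803 tested protein-coding genes. Mrpl46 and Mrps11 on chromosome 7 were the single pair of members. Their RefSeq starts leave 41 bases between them, of which the 29 that precede both starts in GENCODE too are chr7:78783090-78783118, written on the plus strand and shown as the stretch between the main starts of both genes. A longer annotated Mrpl46 transcript spans them.
Mrpl46 to Mrps11: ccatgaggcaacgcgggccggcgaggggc
Mrps11, in the platform of the small subunit, had 77.9, 46.7 and 57.4 CPM in the young libraries and 102, 106 and 109 CPM in the aged ones and rose (0.80 ± 0.22, edgeR adjusted p = 0.0249). Mrpl46, a mitochondria-specific protein of the large subunit, had 91.4, 69.8 and 96.4 CPM in the young libraries and 64.3, 88.4 and 103 CPM in the aged ones, with a log2 change of -0.01 (edgeR adjusted p = 0.985). The ratio of Mrps11 to Mrpl46 was 0.706 ± 0.133 over the young libraries and 1.28 ± 0.275 over the aged ones (SD, n = 3 each), with no overlap. The difference of 0.85 in log2 ratio gave p = 0.1 in a two-sided exact permutation test, the smallest value that 20 arrangements allow. Other genes overlap 12.2% of the Mrpl46 and 7.97% of the Mrps11 exons, and each of the pair has its largest overlap with its partner. The Mrps11 call was lost in 5 of the 6 fits that left out a library.

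Of the 17 head-to-head partners tested, 3 were called higher, Mrps11 among them, and 2 lower. Of all genes tested, 11.2% were called higher and 8.14% lower. Another 2 partners were not tested. Those called outside the family were as follows. Fau, which encodes a cytosolic ribosomal protein and faces Mrpl49, rose by a log2 change of 1.11 (edgeR adjusted p = 0.000247), and Mrpl49 had 0.30 (adjusted p 0.461). Psma2, a proteasome subunit facing Mrpl32, rose (0.42, edgeR adjusted p = 0.0433), and Mrpl32 had -0.08 (adjusted p 0.815). Tcp1, a chaperonin subunit facing Mrpl18, fell (-0.48, edgeR adjusted p = 0.0446), and Mrpl18 had 0.22 (adjusted p 0.477). Ppp1r10, a phosphatase regulator facing Mrps18b, fell (-1.52, edgeR adjusted p = 0.0372).

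Ribosomal subunits that carry other names rose in 4 of 6 cases and fell in 0, with a median of 0.64, beside the 11.2% and 8.14% of all genes. Their median coding length was 669 bases, against 579 bases for the members, and the part of length was not tested. Chchd1 of the small subunit rose from 148, 110 and 163 CPM to 230, 251 and 284 CPM (0.86 ± 0.18, edgeR adjusted p = 0.0068). Aurkaip1, also of the small subunit, rose from 172, 149 and 216 CPM to 264, 358 and 330 CPM (0.82, edgeR adjusted p = 0.00867). Ict1, the older name of Mrpl58, a release factor built into the large subunit, rose by 0.72 (edgeR adjusted p = 0.0295). Dap3 and Ptcd3 of the small subunit had -0.16 and -0.13 and did not pass.

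Of 26 tested factors that build the mitochondrial ribosome 2 rose and 2 fell, with a median of -0.21, beside the 11.2% and 8.14% of all genes. The median coding length of these factors was 1101 bases, against 579 bases for the members, and the difference from the members was not tested. Malsu1, which binds the large subunit at Mrpl14 and keeps the subunits apart during assembly, rose from 61.8, 51.1 and 71.2 CPM to 120, 119 and 95.1 CPM (0.86 ± 0.20, edgeR adjusted p = 0.0121). Other genes overlap 40.5% of its exons, with the largest overlap in Igf2bp3. Mtg1, an assembly GTPase, rose (0.79, edgeR adjusted p = 0.0432). Dhx30, an RNA helicase of mitochondrial RNA granules, fell from 35.0, 51.0 and 46.8 CPM to 6.56, 8.56 and 17.8 CPM (-2.01 ± 0.40, edgeR adjusted p = 0.00529). Fastkd2, which binds the large ribosomal RNA, fell as well (-1.71, edgeR adjusted p = 0.0218).

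Of 16 translation factors 1 rose and 2 fell, with a median of -0.14 and a median coding length of 1231.5 bases. Few genes of this and the next lists were called, and their shares were not tested against the 11.2% and 8.14% of all genes. Gfm1, the elongation factor that moves the ribosome along, had 42.0, 41.2 and 26.6 CPM in the young libraries and 9.44 to 10.9 CPM in the aged ones and fell (-1.85 ± 0.33, edgeR adjusted p = 0.00274). Mtif2, the initiation factor that brings the first tRNA, fell (-1.91, edgeR adjusted p = 0.0273). Slirp, a binding partner of Lrpprc on mitochondrial messenger RNA, rose (0.82, edgeR adjusted p = 0.0122) but shares 97.8% of its exons with other genes, with the largest overlap in Snw1. Lrpprc had -1.15 and did not pass (adjusted p 0.215).

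Of 17 mitochondrial aminoacyl-tRNA synthetases, which charge tRNAs for this ribosome, 1 rose and 2 fell (median -0.27, median coding length 1659 bases). Lars2, for leucine, rose from 182, 212 and 181 CPM to 394, 577 and 581 CPM (1.43 ± 0.17, edgeR adjusted p = 0.000278). Fars2, for phenylalanine (-1.52, edgeR adjusted p = 0.00396), and Vars2, for valine (-2.24, edgeR adjusted p = 0.0138), fell. Hars2, for histidine, had -1.23 and did not pass (edgeR adjusted p = 0.183). Of 19 genes for transcription, replication and RNA processing of mitochondrial DNA, 1 rose and 3 fell (median -0.30, median coding length 1312.5 bases). Hsd17b10, a dehydrogenase that is also a subunit of mitochondrial RNase P, rose from 275, 237 and 355 CPM to 902, 1009 and 687 CPM (1.58 ± 0.19, edgeR adjusted p = 0.000244). The RNA helicase Supv3l1 (-1.64), the tRNA 3′ end nuclease Elac2 (-1.97) and the mitochondrial RNA polymerase Polrmt (-1.86) fell, with edgeR adjusted p of 0.00536, 0.0138 and 0.0305. No row of the table starts with mt-, so the ribosomal RNAs and messenger RNAs of mitochondrial DNA are not analysed here.

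Beside the members, 64 of 78 tested cytosolic ribosomal protein genes rose and 0 fell, with a median log2 change of 0.87. Of 76 nuclear genes for respiratory chain subunits, 57 rose and 2 fell (0.81). The shares over all genes tested were 11.2% higher and 8.14% lower, and 34.6% of all genes with up to 717 coding bases were called higher. Both lists had shorter coding sequences than the members, with medians of 459 and 429 bases against 579 bases. The differences between the 3 lists were not tested.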

How the data were processed

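RNA was measured by single-end sequencing in 6 libraries, 3 young and 3 aged by their titles. The authors deposited unnormalized read counts as whole numbers. The submitters' processing notes name the build mm10, the aligner STAR 2.5.3a, and DESeq2 1.1, Cufflinks 2.0, FastQC 1.0.0 and bcl2fastq 2.20.0.422. How reads were counted, against which annotation and with which strand setting is not given in the sources used here, so reads of overlapping genes and processed copies cannot be told apart. In 27 rows, with 0.153% of counts, symbols had been turned into dates, and they stayed in library sizes and tests.

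The counts were tested with edgeR 4.0.16 in R 4.3.3 (filterByExpr with minimum count 10 and minimum total 15, TMM, glmQLFit and glmQLFTest), with Benjamini-Hochberg adjustment over all 11805 genes tested and a threshold of 0.05. Standard errors were taken as the absolute log2 change over the square root of F. The test was checked on simulated data. Libraries within a group showed differences above sampling noise (chi-square over degrees of freedom 34.5 to 86.3). Coordinates, lengths and exon overlaps came from GENCODE vM21 (GRCm38), and overlap is named from 10% of exon length on. The percentage counts exons of all overlapping genes on either strand, and the gene named has the largest overlap. This overlap applied to 18 members.

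The members and gene lists were chosen with earlier results of these data known. Members with full values were the 12 with the smallest p among those called, the 3 highest and 3 lowest per 1000 bases in each subunit, and a set of structural interest (Mrps30, the Mrps18 genes, Mrps36, Mrps12 and the stalk). From each related list up to 4 genes were taken by smallest p. A called gene among the subunits under other names, which this rule covers, is not reported here, though it stays in the counts. Further members and genes were named after their values were seen. The alternatives were other scalings and filters, DESeq2 1.42.0, limma 3.58.1 (voom), robust dispersion, leaving out each library, the replicate number as a block, and offsets for transcript or coding length with GC content, the coding length being added after seeing the data.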

Additional observations from a re-analysis of the deposited data

How the results depend on the processing

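Of 893 values of single genes under an alternative, 696 kept their direction and side of the threshold, 150 lost and 6 gained a call, and 41 changed sign. For all members, the counts under other scalings, filters and tools, except library totals, were 22 to 28 higher and 0 to 1 lower, with all 22 calls among them. The labels do not say whether the title numbers pair the libraries. For this, each gene's group mean was subtracted from its log2 CPM, and the deviations were correlated between young and aged libraries. Correlations of these deviations for same-numbered libraries were 0.0196, 0.00883 and 0.0414, and not every library correlated best with its own number. With 3 libraries per group these values cannot decide the question. With the number as a replicate block, 20 members were called higher, all among the 22. Causes of the changes below were not tested. Leaving out a library also lowers the number of samples, and its part in the lost calls was not tested.

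On library totals, all-gene calls were 717 higher and 2381 lower (1325 and 961 with TMM), and the median log2 change -0.52. Members gave 4 higher and 5 lower (median -0.11), the large subunit 3 and 3 (-0.12), the small subunit 1 and 2 (-0.068). DESeq2, limma-voom and robust edgeR each called 1 member lower, Mrpl45 of the large subunit, and DESeq2 put the all-gene median at -0.049. Leaving out a library gave 9 to 26 members higher (large 5 to 17, small 4 to 9), medians of 0.33 to 0.40 (small 0.30 to 0.46), 399 to 849 genes lower with an all-gene median of -0.12 to -0.055, and a large minus small difference of -0.099 to 0.040. Without members that overlap another gene, 6 small-subunit genes were higher.

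With offsets for transcript length and GC content, 14 members were higher and 2 lower (median 0.041), with a large-subunit median of 0.042, 6 small-subunit genes higher and 2 lower (0.041), a large minus small difference of 0.0015 and an all-gene median of 0.061. Together with the replicate block these were 12 and 2 (0.051), 6 large-subunit genes higher (0.041), 6 and 2 small-subunit genes (0.056), 487 genes lower and an all-gene median of 0.018. With coding-length offsets 1 member was higher and 1 lower (0.054), 0 large-subunit genes higher (-0.013), 1 and 1 small-subunit genes (0.16), 558 genes lower and an all-gene median of 0.067. Coding-length offsets with the replicate block gave 2 higher and 1 lower (0.034), 1 large-subunit gene higher (-0.0089), 1 and 1 small-subunit genes (0.15), 814 genes higher and 387 lower, and an all-gene median of 0.026.

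On library totals 34 of 77 members had a positive log2 change, against 61 with TMM, and Mrpl49 (-0.12) and Mrpl18 (-0.19) were among those that turned. Among the members that the naming rule covers, signs changed as follows, as log2 changes. On library totals Mrpl47 had -0.35, Mrps35 -0.24, Mrps5 -0.29, Mrps18b -0.26, Mrpl10 -0.044 and Mrps12 -0.23. With transcript-length offsets, without and with the block, Mrps18a had -0.024 and -0.024, Mrps21 -0.065 and -0.074, Mrpl20 -0.076 and -0.065, Mrpl19 0.57 and 0.57, Mrps2 0.0018 and 0.012, Mrps30 0.34 and 0.33, Mrps18b -0.33 and -0.32, and Mrps12 -0.51 and -0.52. With coding-length offsets, without and with the block, Mrpl47 had -0.016 and -0.0038, Mrps30 0.31 and 0.31, Mrps18b -0.052 and -0.044, Mrpl12 -0.052 and -0.055, and Mrps12 -0.53 and -0.54. Mrps30 (-0.015 with the settings of the report) also had 0.0142 with DESeq2 size factors, 0.0143 with upper-quartile factors and 0.0123 in the DESeq2 test. Leaving out a library gave -0.17 to 0.17 for Mrps30, above 0 without young 3, aged 1 or aged 3, and -0.054 to 0.37 for Mrpl47, below 0 without young 1, young 2 or aged 2.

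The 3 libraries per group limit what can be called, and Mrps36, Mrpl23 and Mrps31, at the lowest levels, carried standard errors of 0.36, 0.31 and 0.42. Wide errors were not limited to the lowest levels, since Mrps27 and Mrps22 had 0.363 and 0.362. The labels give no extraction or sequencing batch.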
